A study of Mus musculus with 6 samples.

Results

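Insulin, PI3K-AKT-mTOR and adipokine signalling was followed through 38 genes, taken by name from a list of receptors, kinases, brakes, adipokines and adipokine receptors. The list was chosen with earlier results of these data known. All 38 were found in the RefSeq gene table for mouse assembly GRCm38.p6 (mm10), among 21887 protein-coding genes. The libraries come from chromatin immunoprecipitation followed by sequencing (ChIP-seq) of epididymal fat from mice injected into the peritoneum with AAV2-Otud3-Flag, an adeno-associated virus carrying a Flag-tagged copy of the deubiquitinase gene Otud3. Tissue was taken 4 weeks after injection. One anti-Flag peak list exists for each of replicates 1, 3 and 4, while inputs (3 libraries) were not used here. The strain, age and sex of the mice, the promoter of the viral construct and whether the libraries came from separate mice are not given in the sources used here, so the spread between libraries may be technical. The labels name the sample both as adipocytes and as whole epididymal tissue, which also holds vascular, immune and stromal cells. Peak lists carry no expression values, so the cell type was not checked against its markers.

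Insulin binding to its receptor tyrosine kinase leads to phosphorylation of the adaptor proteins IRS1 and IRS2, which recruit PI3-kinase. The lipid it makes brings PDK1 and AKT together at the membrane, and AKT then acts on glucose transport, lipolysis, FOXO transcription factors, glycogen synthase kinase and mTOR. In fat this pathway promotes glucose uptake and restrains lipolysis, and adipocytes in turn secrete adipokines such as adiponectin and leptin that act on other tissues.

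A summit is the position of highest enrichment within a peak. It was assigned to a gene when it lay inside the annotated span or within 5 kb of it. Such a summit was present on 15 of 38 genes in replicate 1, 13 in replicate 3 and 15 in replicate 4 (mean 14.3 ± 1.15 SD, n = 3). Over all protein-coding genes the share was 25.2%, 15.8% and 23.8% in the same order. The 38 genes are long, with a median of 66.8 kb against 17.2 kb for all genes, and long genes hold more summits. Protein-coding genes within 25% of the length of each member gave 14.3, 9.79 and 15.2 hit genes when their shares were summed over the 38. The count was therefore close to that of genes of like length in replicates 1 and 4 and higher in replicate 3.

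Recurrence between libraries was also near the level of like-length genes. Of the 38 genes, 4 had a summit in every list (4.40% of all protein-coding genes did, and like-length shares sum to 3.20 genes), and 11 had one in at least 2 lists (16.2% of all genes, 11.6 by length). Replicates 1 and 3 had 5 hit genes in common, replicates 1 and 4 had 8, and replicates 3 and 4 had 6. The lists differ in size and shares of all genes were not computed for these pairs, so the pairs cannot be compared. A further 17 were hit in 1 list and 10 in none (55.8% of all genes, 13.5 by length). The 4 genes found in every list were Insr, Igf1r, Tbc1d4 and Rptor, all of them longer than 100 kb. Among genes of that length, 4 of 11 members and 28.2% of all 2429 genes were hit in all lists. None of the 27 members under 100 kb was hit in every list, and neither were most genes of those lengths, with shares of 0.236%, 1.88% and 6.16% in genes under 20 kb, of 20 to 50 kb and of 50 to 100 kb. When each list was cut to its 6531 intervals of lowest p, the size of the shortest, 11, 13 and 9 members were hit in replicates 1, 3 and 4, and of the 4 genes Insr and Rptor were still hit in every list. With a p of at most 0.001, Insr alone was. No share of all genes or of like-length genes is given for these shortened lists, so these counts have no level to be read against. Across the 38 genes, length and the total number of summits had a Spearman correlation of 0.59, and across all protein-coding genes it was 0.53, both given as descriptions.

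**Figure D1:**
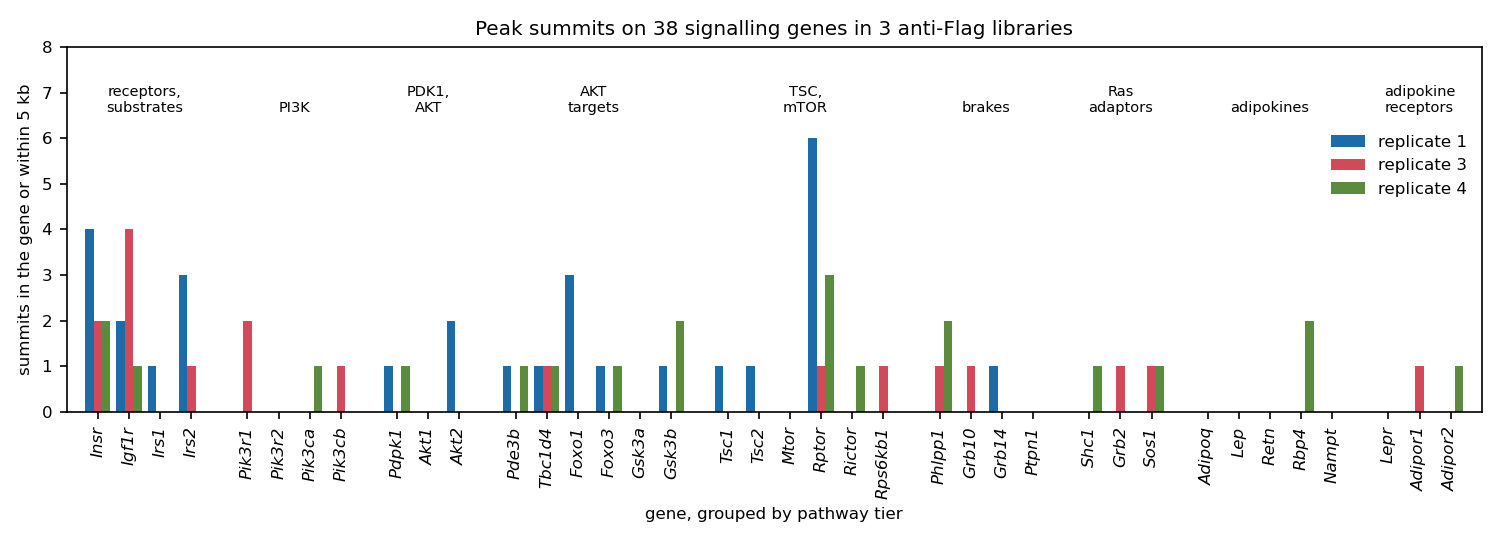
Number of peak summits inside or within 5 kb of each of the 38 genes (vertical axis), with genes grouped by pathway tier (horizontal axis) and 1 bar per anti-Flag library. Rptor reached 6 summits in replicate 1, Insr and Igf1r had summits in all 3 libraries, and Adipoq, Lep, Retn and Nampt had none.

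In all, 68 summits fell on the 38 genes, 29 in replicate 1, 18 in replicate 3 and 21 in replicate 4. Genes of like length gave 21.6, 12.6 and 23.6 in the same order, so the members had more summits than their length class in replicates 1 and 3 and fewer in replicate 4. The density of summits in the windows of the members was 8.39, 5.20 and 6.07 per Mb (mean 6.55 ± 1.64 SD, n = 3), against 6.29, 3.49 and 6.35 per Mb over all protein-coding genes. The ratio of the 2 densities was 1.33, 1.49 and 0.956. The median gene of the list had 1 summit over the 3 libraries, and the median protein-coding gene had 0. Just 4 genes, Insr, Igf1r, Rptor and Irs2, held 29 of the 68 summits, or 42.6%. These 4 are set apart here after their values were seen.

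Every peak on these genes was weak. The caller's fold enrichment, the authors' value, ran from 2.45 to 4.42, and the summit rested on 3 to 8 fragments. No member peak had a q below 0.05, a level that 0.337%, 0.398% and 0.496% of the intervals in replicates 1, 3 and 4 reached. The lowest q was 0.258. Median folds were 3.45, 3.05 and 3.09 on the members and 3.20, 3.00 and 3.02 over the whole lists. In replicate 1, 17 of 29 member peaks lay above the median of their list, in replicate 3 it was 9 of 18 and in replicate 4 it was 11 of 21. At this depth enrichment at a single site on these genes was not distinguishable from background, and the values below describe where called peaks fell.

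**Figure D2:**
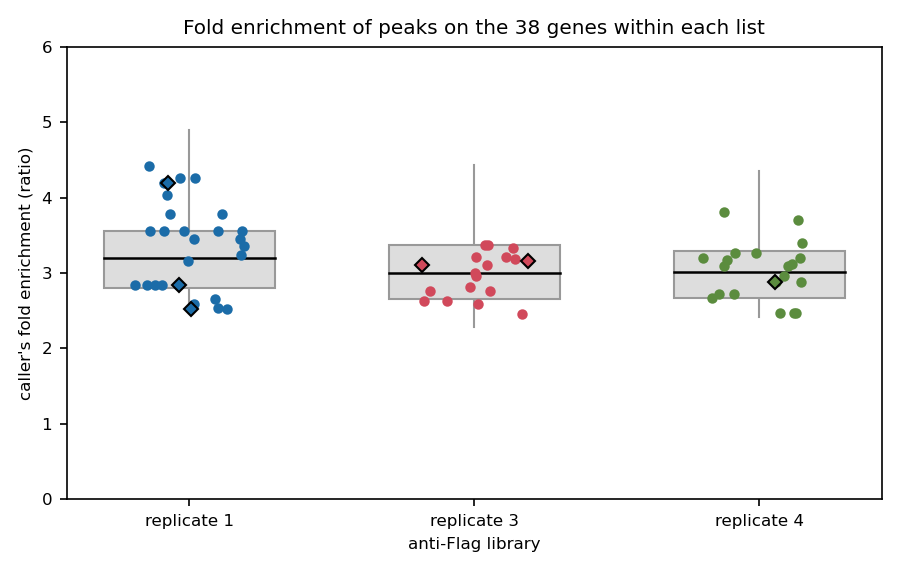
Fold enrichment given by the peak caller (vertical axis, a ratio) for each peak on the 38 genes in each anti-Flag library (horizontal axis). Circles are peaks and diamonds outlined in black are peaks within 1 kb of a gene end, the grey box spans the middle 50% of all peaks of the list, its black line is the list median and the thin line runs from the 1st to the 99th percentile. Member medians of 3.45, 3.05 and 3.09 lie near the list medians of 3.20, 3.00 and 3.02.

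The receptors and their substrates carried the most summits of any tier in total (20) and in replicates 1 and 3, but not in replicate 4, where AKT targets had 5 and the TSC and mTOR tier 4. Insr, Igf1r, Irs1 and Irs2 together had 10, 7 and 3 summits in replicates 1, 3 and 4, and genes of their lengths gave 2.95, 1.76 and 3.39. The excess over like-length genes was present in replicates 1 and 3 and absent in replicate 4, where the count was slightly lower. The tiers were chosen with earlier results of these data known, so this excess describes the lists alone. All 4 genes were hit in replicate 1, 3 in replicate 3 and 2 in replicate 4 (mean 3.00 ± 1.00 SD, n = 3), while like-length genes gave a mean of 1.66.

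Insr encodes the insulin receptor and spans 128.728 kb on chromosome 8 (3150922 to 3279649). It held 4 summits in replicate 1, 2 in replicate 3 and 2 in replicate 4 (mean 2.67 ± 1.15 SD, n = 3). Every library had at least 2 summits, and the highest count was in replicate 1. Genes of like length had 2.35 over the 3 libraries together, against 8 on Insr, and 0.331% of the 1207 such genes had more than 8. With Insr left out, the other 37 genes had 25, 16 and 19 summits, against 20.8, 12.1 and 22.7 by length.

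Of the 8 summits on Insr, 5 lay in 2 places where summits of replicates 1 and 3 came near each other. No annotated start was available for Insr, so its summits were not placed relative to its promoter. Near the lower-coordinate gene end, summits of replicates 1 and 3 were 0.793 and 0.811 kb inside the gene, 18 bp apart, with folds of 2.53 and 3.16. This was the sole overlap between peaks of different lists on any of the 38 genes. Regions shared by at least 2 lists were found on 0.475% of all protein-coding genes of any length. Insr is longer than 91.9% of those genes, and no like-length share was computed for shared regions. A second group lay in the gene body, where replicate 1 had summits at 81.353 and 83.864 kb from the same end, with folds of 4.42 and 3.45, and replicate 3 had one at 80.81 kb with a fold of 2.96. The nearest of these were 543 bp apart and their intervals did not overlap. The fold of 4.42, from 6 fragments (q = 0.258), was the highest on any member. The other 3 summits lay apart, at 70.191 kb in replicate 1 (fold 3.24), and in replicate 4 at 36.63 kb inside the gene and 4.825 kb outside it, just within the 5 kb limit.

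Igf1r encodes the receptor of insulin-like growth factor 1 and spans 281.412 kb on chromosome 7 (67952257 to 68233668). It held 2 summits in replicate 1, 4 in replicate 3 and 1 in replicate 4, so the highest count came from another library than on Insr. In replicate 3 the 4 summits fell between 56.813 and 84.92 kb downstream of the gene start, with folds of 2.76 to 3.37. Replicate 1 had summits at 0.04 kb upstream of the start and 216.19 kb downstream, and replicate 4 at 164.771 kb. No summits of different lists were closer than 51.419 kb, so the gene recurred in all lists without any recurring site. Of the 492 genes of like length, 9.76% had more than its 7 summits.

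The Igf1r promoter peak of replicate 1 was the sole summit within 1 kb of an annotated start among the 58 on genes whose start the promoter table gives, and its sequence is shown for that reason. The peak covered 67952098 to 67952345 on chromosome 7, with a fold of 4.20 from 5 fragments (q = 0.342), and replicates 3 and 4 had no peak there. The RefSeq promoter window of build GRCm38.p6 runs from 250 bases before the start to 50 after it, chr7:67952007-67952306 on the plus strand, and 209 of its 300 bases lay in the peak. It is written 5′ to 3′ with matches to the GC box GGGCGG in capitals.
Igf1r promoter: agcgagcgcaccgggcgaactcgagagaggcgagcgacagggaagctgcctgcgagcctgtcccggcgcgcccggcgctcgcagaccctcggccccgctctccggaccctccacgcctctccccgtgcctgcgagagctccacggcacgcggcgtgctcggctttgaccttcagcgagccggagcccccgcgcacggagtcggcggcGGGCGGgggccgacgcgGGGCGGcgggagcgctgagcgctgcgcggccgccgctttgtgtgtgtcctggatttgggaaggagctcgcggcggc
The window was 76% G and C with 48 CpG dinucleotides, against medians of 61.3% and 20.5 over the 48 promoter windows of the members and 52.7% and 7 over all 32851 windows. Its 2 GC boxes began 43 and 26 bases before the gene start, and the summit, base 211 of the window, fell inside the first. No match to the other motifs searched was present in these letters.

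Irs2 and Irs1 encode the adaptors that link the receptors to PI3-kinase. Irs2, at 24.249 kb on chromosome 8 (10984681 to 11008929), held 3 summits in replicate 1, 1 in replicate 3 and 0 in replicate 4. Its density of 3.89 summits per 100 kb and library was the highest of the 38 genes, ahead of Rbp4 at 3.56. This rested on replicate 1, without which it was 1.46, below Rbp4 at 5.35, and without replicate 3 it was 4.38, also below Rbp4. Of 3128 genes of its length, 0.352% had more than its 4 summits, and the mean was 0.667. The 3 summits of replicate 1 lay close together, between 19.596 and 23.648 kb downstream of the start, near the end of the gene, with folds of 2.84, 4.27 and 2.84. Irs1 had a single summit, in replicate 1, 2.275 kb upstream of its start, with a fold of 2.53 from 3 fragments.

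**Figure D3:**
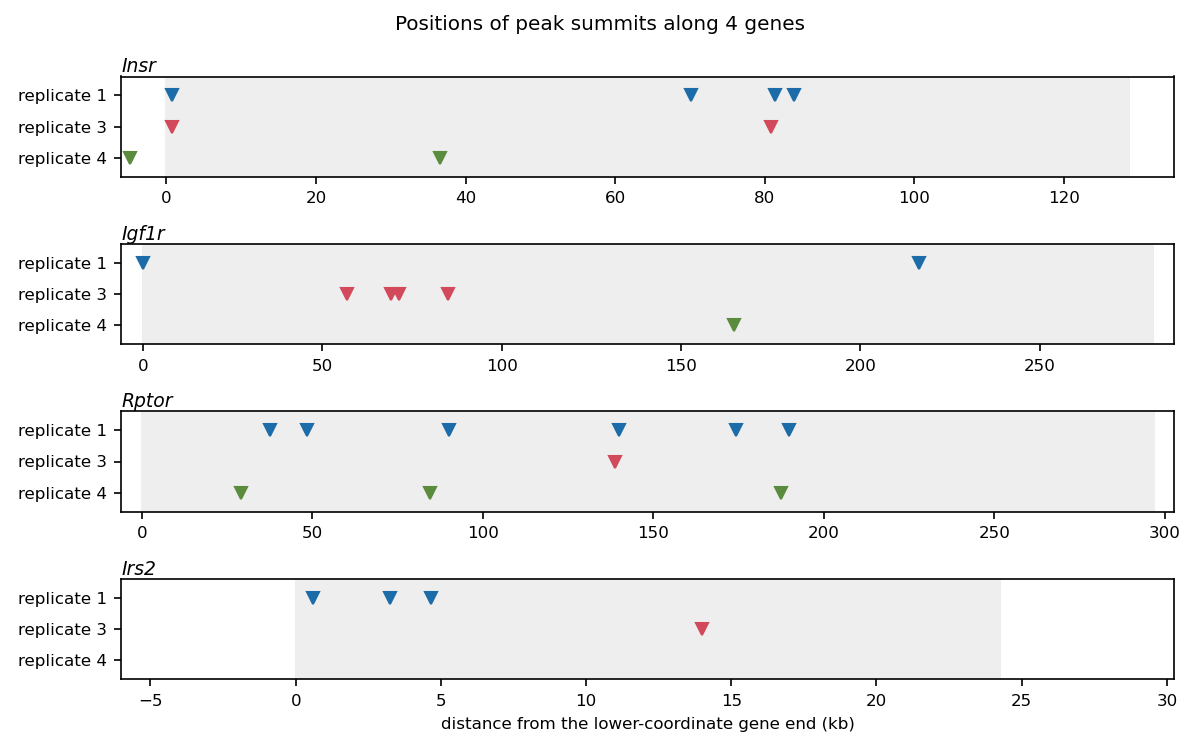
Positions of peak summits (triangles) along Insr, Igf1r, Rptor and Irs2, as distance in kb from the lower-coordinate gene end (horizontal axis), with 1 row per anti-Flag library and the gene span in grey. Summits of different libraries coincide at the left end of Insr, 18 bp apart, and those on Igf1r are at least 51.419 kb apart.

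PI3-kinase consists of a regulatory and a catalytic subunit, and its genes held 4 summits in all, against 5.51 in genes of like length. Pik3r1, Pik3r2, Pik3ca and Pik3cb had 0, 3 and 1 summits in replicates 1, 3 and 4, against 2.08, 1.21 and 2.22 by length, and none of the 4 was hit in more than 1 list. Pik3r1, the regulatory subunit p85α, had both of its summits in replicate 3, one of them 0.412 kb inside the gene end that lies farther from its starts (fold 3.10, 6 fragments). Pik3cb, the catalytic subunit p110β, had 1 summit in replicate 3 and Pik3ca, the catalytic subunit p110α, had 1 in replicate 4. Pik3r2, a short gene of 8.537 kb, had none.

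The kinases PDK1 and AKT together had 3, 0 and 1 summits, against 1.31, 0.698 and 1.30 by length. Akt2, the AKT isoform that serves insulin-stimulated glucose uptake in fat, had 2 summits in replicate 1 and 0 in replicates 3 and 4. One lay 3.889 kb upstream of its start with a fold of 3.45, the other 12.835 kb downstream of its nearest annotated start with a fold of 3.79. Pdpk1, which phosphorylates AKT, had 1 summit each in replicates 1 and 4, 66.491 kb apart. Akt1, of 21.064 kb, had none in any list.

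Targets of AKT had 7, 1 and 5 summits over 6 genes, against 4.24, 2.58 and 4.82 by length. Tbc1d4 encodes AS160, the Rab GTPase-activating protein that holds back GLUT4 vesicles, and it had 1 summit in each list with folds of 4.04, 2.63 and 2.47 in replicates 1, 3 and 4. These were at different sites, the closest 48.944 kb apart, and the one of replicate 3 lay 1.855 kb outside the gene. Foxo1, a transcription factor that AKT keeps out of the nucleus, had 3 summits in replicate 1, at 5.064, 17.071 and 26.108 kb downstream of its start with folds of 3.55, 2.84 and 2.84, and 0 in the other lists. Foxo3, its relative, had 1 summit each in replicates 1 and 4, 2918 bp apart, with folds of 2.84 and 3.09.

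Among the remaining targets, Pde3b, the phosphodiesterase through which insulin lowers cyclic AMP and lipolysis, had 1 summit in replicate 1 (fold 3.79) and 1 in replicate 4 (fold 3.81, the highest member fold of that list), 91.891 kb apart. Gsk3b, a kinase that inhibits glycogen synthase, had 1, 0 and 2 summits. Gsk3a, the shorter paralogous gene of 9.594 kb, had none.

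Within the TSC and mTOR tier, most summits were on 1 gene, although in replicate 3 it held 1 of 2. Rptor encodes raptor, the scaffold of mTOR complex 1, and spans 296.687 kb on chromosome 11 (119602905 to 119899591). It held 6 summits in replicate 1, 1 in replicate 3 and 3 in replicate 4 (mean 3.33 ± 2.52 SD, n = 3), 10 of the tier's 14. The count of replicate 1 was 2 times that of replicate 4 and 6 times that of replicate 3, and the mean without replicate 1 was 2. Of 452 genes of like length, 2.88% had more than 10 and the mean was 4.02.

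Summits on Rptor from different lists came near each other without overlapping. Those of replicates 1 and 3 at 139.812 and 138.611 kb from the gene start were 1201 bp apart, with folds of 2.66 and 2.76. Those of replicates 1 and 4 at 189.753 and 187.418 kb were 2335 bp apart, with folds of 4.20 and 3.26. In all, 6 pairs of summits from different lists lay within 5 kb of each other on 3 member genes (Insr, Foxo3 and Rptor), and the peaks of 1 pair overlapped. The pairs are not all separate, since the replicate 3 summit at 80.81 kb on Insr was used more than once. The share of all genes with such a pair was not computed.

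The other genes of this tier had at most 1 summit. Rictor, the scaffold of mTOR complex 2, had 1 in replicate 4, and Rps6kb1, the S6 kinase downstream of mTOR complex 1, had 1 in replicate 3. Tsc1 and Tsc2 encode the complex that restrains mTOR, and each had 1 in replicate 1. The summit by Tsc2 lay 2.204 kb outside the gene and inside its neighbour Pkd1. Mtor itself, 109.104 kb long, had 0 summits in all 3 lists, and 18.0% of the 1431 genes of its length had none either.

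**Figure D4:**
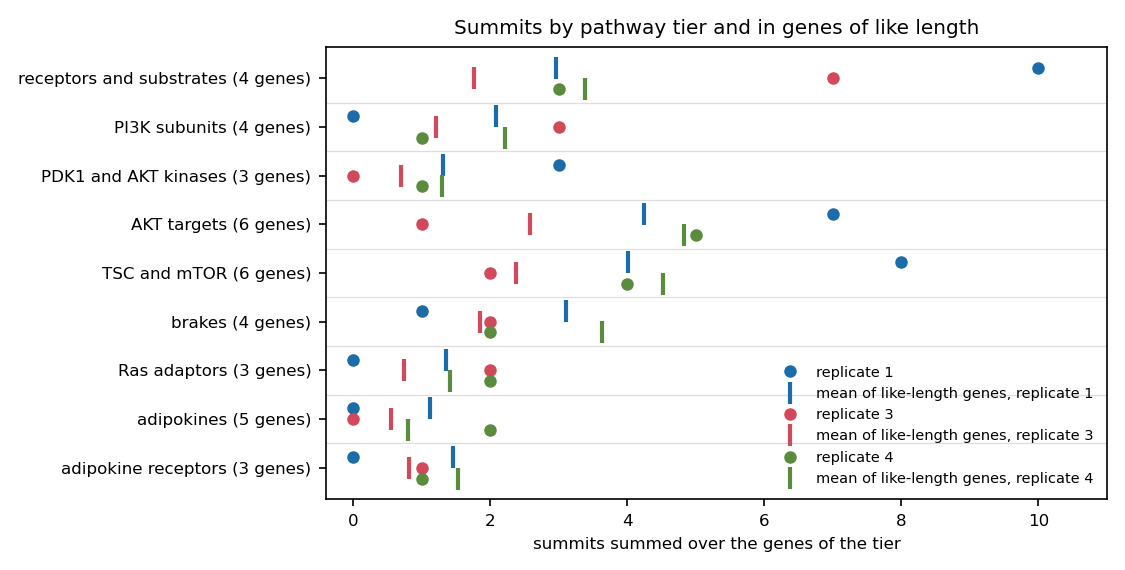
Summits summed over the genes of each of the 9 pathway tiers (horizontal axis), as circles for the 3 anti-Flag libraries, with vertical ticks in the same colour for the sum of mean counts of like-length genes. The circles of the receptor tier at 10 and 7 in replicates 1 and 3 lie right of their ticks at 2.95 and 1.76, and those of the brakes lie left of theirs in replicates 1 and 4.

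Brakes on the pathway had fewer summits than their length class in replicates 1 and 4. Phlpp1, Grb10, Grb14 and Ptpn1 together had 1, 2 and 2, against 3.11, 1.86 and 3.63. Phlpp1, a phosphatase that removes an activating phosphate from AKT, is 222.377 kb long and had 0, 1 and 2 summits in replicates 1, 3 and 4, 47.341 kb apart at the closest. Grb10 and Grb14 encode adaptors that bind the receptor and dampen it, and had 1 summit each, in replicate 3 and in replicate 1. Ptpn1, the tyrosine phosphatase PTP1B that dephosphorylates the insulin receptor, had none. The adaptors of the Ras branch, Shc1, Grb2 and Sos1, had 0, 2 and 2 summits together, against 1.36, 0.745 and 1.41, and Sos1, a Ras exchange factor, was the one hit in 2 lists, with folds of 3.00 and 3.71. The summit of replicate 3 on Sos1 also lay within Arhgef33.

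Adipokine genes, which encode the secreted products by which fat tissue is known, had 2 summits in all, near the 2.47 of genes of like length. Adipoq (adiponectin), Lep (leptin), Retn (resistin) and Nampt (visfatin) had 0 in every list, and Rbp4, the retinol carrier, had 2 in replicate 4 alone. The genes without a summit numbered 4, against 3.24 by length. The density was 0, 0 and 16.5 per Mb in replicates 1, 3 and 4 (mean 5.52 ± 9.55 SD, n = 3). All of it came from Rbp4 in replicate 4, and the mean over all protein-coding genes was 5.38. The tier's count of 0, 0 and 2 compares with 1.11, 0.548 and 0.804 in genes of like length, since these genes are short (median 11.4 kb). Genes of the length of Adipoq had no summit in any list in 65.9% of cases, and of the length of Lep in 63.8%. The 2 summits of Rbp4 lay 1.058 and 1.918 kb outside the gene, 1 flank holding both, with folds of 3.18 and 3.26 from 5 fragments each. Of 2339 genes of its length, 1.54% had more than 2, and 4.23% were hit in at least 2 lists and so had 2 or more.

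Receptors for adipokines had 0, 1 and 1 summits, against 1.46, 0.816 and 1.53. Adipor1 and Adipor2, the adiponectin receptors, had 1 each, in replicate 3 inside the gene (fold 3.22) and in replicate 4 at 0.349 kb outside the gene end that lies farther from the start (fold 2.88). Lepr, the leptin receptor gene of 98.216 kb, had none, as did 19.8% of the 1539 genes of its length.

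Gene ends were counted apart. A summit within 1 kb of either annotated end was present on 3 members in replicate 1 (3.49% of all protein-coding genes), 2 in replicate 3 (1.33%) and 1 in replicate 4 (1.97%). In at least 1 list this held for 5 of 38 members and 6.60% of all genes, and in at least 2 lists for Insr alone and 0.192% of all genes. Of the 5, Insr, Igf1r and Irs2 belong to the receptor tier, and Pik3r1 and Adipor2 to others. No gene of the PDK1 and AKT, AKT target, TSC and mTOR, brake, Ras adaptor or adipokine tiers had a gene-end summit in any list. With a share of 6.60% over all genes, absence from tiers this small does not set them apart.

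Most of the summits lay far from annotated starts, as does most of the sequence of genes this long (median 66.8 kb). Of the 68, 59 (86.8%) were inside the gene span and 9 outside it. Gene spans make up most of the windows. Neither these shares nor the distances below were computed for other genes, so they describe positions alone. The promoter table gave starts for 36 of the 38 genes, all but Insr and Pde3b, and 58 summits were on those genes. Of these, 1 lay within 1 kb of an annotated start, 6 within 5 kb and 47 (81.0%) more than 10 kb away, with a median distance of 36.7 kb. Motif content of the 48 promoter windows of these 36 genes, searched on both strands, is given as a description. The FOXO letters GTAAACA were in 4 of 48 member windows (8.33%, and 3.65% of all windows), those of Adipor1, Adipor2, Akt1 and Rbp4. The E-box CACGTG was in those of Irs1 and Irs2 (4.17% and 7.15%). The C/EBP letters TTGCGCAA were in that of Lep alone (2.08% and 0.183%). GC boxes were in 56.2% of member windows and 35.7% of all, the CCAAT box in 37.5% and 37.4%, and the CRE letters TGACGTCA in 0% and 1.79%. Member windows were also richer in G and C (median 61.3%, against 52.7% over all windows), and the motif shares were not adjusted for this.

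A wider list of 91 further genes of the same pathways, none of them among the 38, was counted in the same way. Of these, 38, 27 and 31 had a summit in replicates 1, 3 and 4 (mean 32.0 ± 5.57 SD, n = 3), against 27.8, 17.8 and 27.5 by length. All 3 counts were above those of like-length genes, a description of these lists alone. The 91 genes were chosen with earlier results of these data known, so these counts are no evidence of an excess. In all lists 10 of the 91 were hit, against 5.21 by length. They included Ulk1, an autophagy kinase under mTOR, Igf2r, the receptor that clears insulin-like growth factor 2, the docking adaptors Gab1 and Gab2, the Ras exchange factor Sos2, Deptor, an inhibitor within mTOR complexes, the ubiquitin ligase Cblb, Mapkap1, a subunit of mTOR complex 2, and Cdh13, a cell-surface binder of adiponectin. Ulk1, of 25.632 kb, was the densest of these, with 2, 1 and 1 summits in replicates 1, 3 and 4. Gab1, of 116.089 kb, had 2, 1 and 3. Gene ends were hit on 9, 5 and 1 of the 91, against 3.49%, 1.33% and 1.97% of all protein-coding genes, and on 0 of them in at least 2 lists, against 0.192%.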

How the data were processed

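ChIP-seq peak lists of 3 anti-Flag libraries were used. The submitters' processing notes name build mm10 and the tools MACS2 2.1.0, BWA 0.7.12 and fastp 0.19.11. The sources used here do not give whether the inputs served as control. The deposited values are the authors': for each peak a fold enrichment ratio at the summit and the −log10 of its p-value and of its q-value. A deposited score equals 10 times the −log10 p-value, cut to a whole number. The deposited lists held 11876, 6541 and 13503 peaks, 1 list per library with no pooling.

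From these, intervals were made distinct (lowest p kept), leaving 11871, 6531 and 13496. The fragments at a summit were recovered from fold and p and 100% of peaks matched a whole number (tolerance 0.001 in log10 p). The lowest background was 0.407, 1.17 and 0.839 fragments, the smallest in replicate 1. Read totals are unknown, and whether these values follow sequencing depth was not tested. Counting error at 3 to 8 fragments is large. Gene spans and promoter sequences came from RefSeq tables of GRCm38.p6, with the mitochondrial genes left out. Like-length genes lie within 25% of a member's length, and were not matched on anything else. Shares of such genes with more summits than a member leave out those with an equal count. They are given for Insr, Igf1r, Irs2, Rptor and Rbp4 and not for the other members.

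With 1 group, no test between groups was run. The 38 members, the tiers and the 91 further genes were chosen with earlier results of these data known. Genes named were members with a summit in all lists, at a gene end or in a shared region, the longest members and Akt2, Foxo1, Adipoq and Lep. The remaining members are given more briefly. Of the 91, those hit in all lists were named, except 1 that is not reported here. Alternatives covered peak threshold, window, overlap and leaving out each replicate. Counting was tested on simulated data. Python 3.11.15, pandas 2.3.3 and scipy 1.17.1 were used.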

Additional observations from a re-analysis of the deposited data

How the results depend on the processing

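Of 128 values recomputed under 17 alternative settings, 97 stayed within 1.5 times the count or within 1 SD and 31 moved. These are counts, densities and shares, which have no direction. The SD over 3 libraries is wide for single genes. For Irs2 it was 1.53 around a mean of 1.333, so no fall could count as a move. The 97 are therefore no measure of stability. The 128 include values for the receptor tier, the further genes, Insr, Igf1r, Rptor and Irs2 that were added after seeing the data. Peaks with a q below 0.05 alone left 0 members hit in each library, at gene ends too, with 0 hit in all lists, 0 in at least 2, 0 summits per Mb and 0 shared regions. With p of at most 0.001, 1 gene was hit in all lists (Insr) and 0 regions were shared. The receptor tier then had a mean of 2 genes hit and the 91 further genes 25.33, settings chosen after seeing the data for these 2 values. With the 6531 lowest-p intervals of each list, 2 genes were hit in all lists (Insr and Rptor) and replicate 4 had 9 members hit. Gene ends then numbered 1 in replicate 1 and 0 in replicate 4, the density was 4.53 per Mb and 0 regions were shared. The further genes gave 24.67, a value also added after seeing the data. These settings leave fewer peaks by construction, and no share of all genes is given for them. Gene-end windows of 500 bp gave 1 in replicate 1 and 1 in replicate 3, windows of 3 kb gave 6 and 2 in replicates 1 and 4, and any overlapping base gave 2 in replicate 4.

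Leaving out each replicate in turn, genes hit in both remaining lists, which then are also those of at least 2 lists, numbered 5 to 8, density was 5.639 to 7.229 per Mb, the like-length share 31.75% to 38.83%, and shared regions 0 to 1, with 0 without replicate 1 or 3. Shares of all genes were not computed for genes hit in both remaining lists. The receptor tier had 2.5 to 3.5 genes and the further genes 29 to 34.5, both added after seeing the data. Irs2 went from a mean of 1.333 summits to 0.5 without replicate 1 and to 0.6667 with the lists cut to equal size. Rptor went from 3.333 to 2 without replicate 1. The recomputed means of both genes were also added after seeing the data. No paired analysis was possible because only 1 group has peak lists here.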
